A study of Mus musculus with 3 samples.

Results

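At embryonic day 7.5 (E7.5), 124 of 18193 mouse genes had a mesoderm intensity at least 2-fold below both other germ layers while the endoderm and the epiblast lay within 2-fold of each other. They are called the mesoderm-low genes here. They were chosen by the intensities themselves. In each of them the log2 intensity was at least 1 higher in endoderm and in epiblast than in mesoderm, the endoderm and the epiblast were less than 1 apart, and both exceeded the floor, which is the median over every array and probe set (intensity 80.63). A gene was read from the probe set (a group of short probes against the same transcript) with the highest mean log2 intensity among those with a single gene symbol. The levels below therefore describe the selection and carry no test.

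Endoderm, mesoderm and epiblast (the neuroectoderm with the primitive streak) were dissected from the embryonic region of E7.5 embryos of ICR mice, an outbred stock, and the labels name no genetic change or treatment. Enzymes and glass needles separated the layers. Each layer gave 1 Affymetrix Mouse Genome 430 2.0 array from 100 ng of total RNA, so no value here has a replicate. The sources used here do not give the number of embryos behind an array.

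At gastrulation, cells of the epiblast, a polarised epithelium, pass through the primitive streak, lose their junctions and spread as mesenchymal mesoderm, a change called epithelial-mesenchymal transition (EMT). The endoderm is again an epithelial sheet. Epithelial cells are held together by E-cadherin at adherens junctions and sealed by claudins at tight junctions, and transcription factors of the SNAI, ZEB and TWIST families are known repressors of such genes during EMT.

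Of the markers, Sox17, an endoderm transcription factor, read 4169.6 in endoderm and 51.3 in epiblast, against 116 in mesoderm. Kdr, a receptor of early mesoderm, read 142 and 147 against 2299.9 in the same order. Sox2, an epiblast transcription factor, read 72.4 and 3032 against 129.7. Pax6, which the study also used for epiblast, did not mark it here and was highest in endoderm, at 181 and 121 against 92.4. All 14 measured visceral endoderm markers were 2-fold or more higher in endoderm than in mesoderm. Their summed intensity was 76408 in endoderm and 1641 in epiblast, against 1698 in mesoderm. Lrp2 was the marker of this list that was above the floor in epiblast and 2-fold or more higher there than in mesoderm, at 1037 and 352 against 96.5. Sums for trophoblast markers were 8184 and 3971 against 3289, for blood markers 784 and 688 against 633, and for decidual markers 2466 and 689 against 1353, in the same order. Only 11 of 13 trophoblast, 3 of 11 blood and 5 of 9 decidual markers were above the floor in any layer. Bmp2 of the decidual list read 1727 and 49.7 against 810, and Cdx2 of the trophoblast list 1283 and 1817 against 932. The sums are therefore no measure of how many such cells were present. None of the genes of these lists was a mesoderm-low gene. The part of other cell types in the differences was not tested.

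The 124 genes made up 1.1% of the 11243 genes above the floor in both endoderm and epiblast. Among those 11243, endoderm was at least 2-fold above mesoderm in 9.93% and epiblast was in 2.72%. Both were in 206 genes (1.83%). In 82 of the 206, endoderm and epiblast stood 2-fold or more apart, with endoderm the higher in 73 and epiblast in 9. These 82 are called the unequal mesoderm-low genes below. The gene lists below are counted over genes above the floor in at least 1 layer. Of all 12785 such genes, 124 were mesoderm-low and 82 unequal.

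Over the 124 genes the intensities had medians of 414 (endoderm), 357 (epiblast) and 96.1 (mesoderm). The median log2 difference from mesoderm was 1.93 for endoderm and 1.69 for epiblast, beside 0.08 and 0.02 over the 11243 genes. Endoderm was the higher of the pair in 80 genes and epiblast in 44, and the pair lay within 1.5-fold of each other in 83. The mesoderm level ran from 4.84% to 49.9% of the lower of the other layers, with a median of 34.6%. In bulk tissue, fewer cells that express a gene and less of its RNA per cell cannot be told apart. Mesoderm was below the floor in 46 genes, where its value is only a bound. With those values raised to the floor, 104 genes still had a difference of 2-fold or more, 18 at least 4-fold and 4 at least 8-fold. The smaller of the log2 differences from mesoderm, with mesoderm raised to the floor, ranked the genes and is called the margin.

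**Figure D1:**
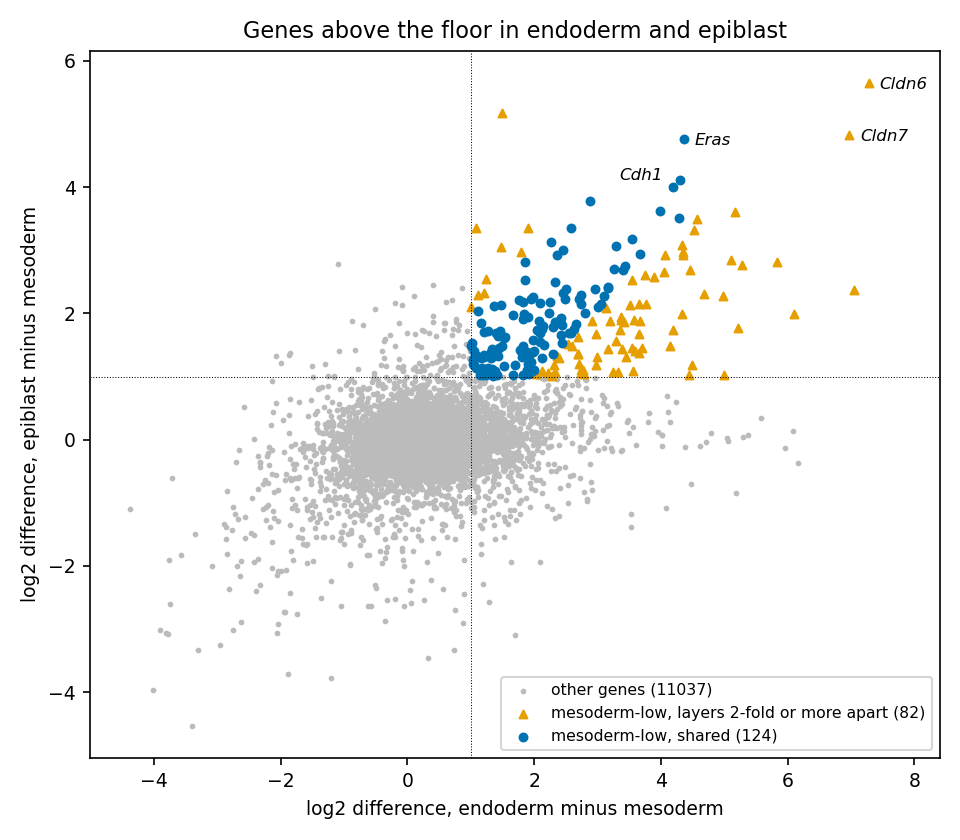
Log2 difference of endoderm from mesoderm (x axis) and of epiblast from mesoderm (y axis) for the 11243 genes above the floor in endoderm and epiblast, 1 array per layer. Circles are the 124 mesoderm-low genes, triangles the 82 unequal ones and dots the others, dotted lines mark the 2-fold limits, and the triangles lie mainly on the endoderm side (73 of 82).

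The 4 genes with the largest margin were Eras, Cdh1, Esrp1 and Epcam. Eras, a Ras-family GTPase of embryonic stem cells that is active without a stimulus, read 1978 in endoderm and 2609.8 in epiblast, against 95.8 in mesoderm. It was 20.6-fold and 27.2-fold above mesoderm in endoderm and epiblast. Cdh1, which encodes E-cadherin, read 4562 in endoderm and 4021 in epiblast, against 249.95 in mesoderm (18.3-fold and 16.1-fold). Esrp1, an RNA-binding protein that sets epithelial splicing patterns, read 1508 in endoderm and 1173 in epiblast, against 94.9 in mesoderm (15.9-fold and 12.4-fold). Epcam, an adhesion protein of the epithelial surface, read 4438 in endoderm and 3456 in epiblast, against 381 in mesoderm (11.6-fold and 9.06-fold). Cdh1 and Epcam were thus among the bright genes of both epithelial layers and remained well above the floor in mesoderm, whereas the mesoderm levels of Eras and Esrp1 were close to the floor.

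The next 8 genes by margin were of mixed function. Chchd10, a protein of the mitochondrial intermembrane space, read 2205 in endoderm and 1499.9 in epiblast, against 229 in mesoderm. Apln, the secreted peptide apelin, read 702 in endoderm and 1199.8 in epiblast, against 117 in mesoderm, and Plch1, a phospholipase C, read 520.4 and 759 against 94.3 in the same order. Both were higher in epiblast than in endoderm. Cbx7, a Polycomb chromatin protein, read 724 in endoderm and 437 in epiblast, against 68.2 in mesoderm, and Bst2, a membrane protein that tethers viruses, read 739.9 and 439.7 against 82.6. Ddah1, an enzyme that breaks down methylated arginines, read 663 in endoderm and 611 in epiblast, against 117 in mesoderm. L1td1, an RNA-binding protein of embryonic stem cells, read 1336 in endoderm and 1964 in epiblast, against 259 in mesoderm, and Rasgrp2, an activator of the small GTPase Rap1, read 698 and 786 against 139. Folds over mesoderm among these 8 genes ran from 5.01 for endoderm in Rasgrp2 to 10.3 for epiblast in Apln, with those of Cbx7 as lower bounds.

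**Figure D2:**
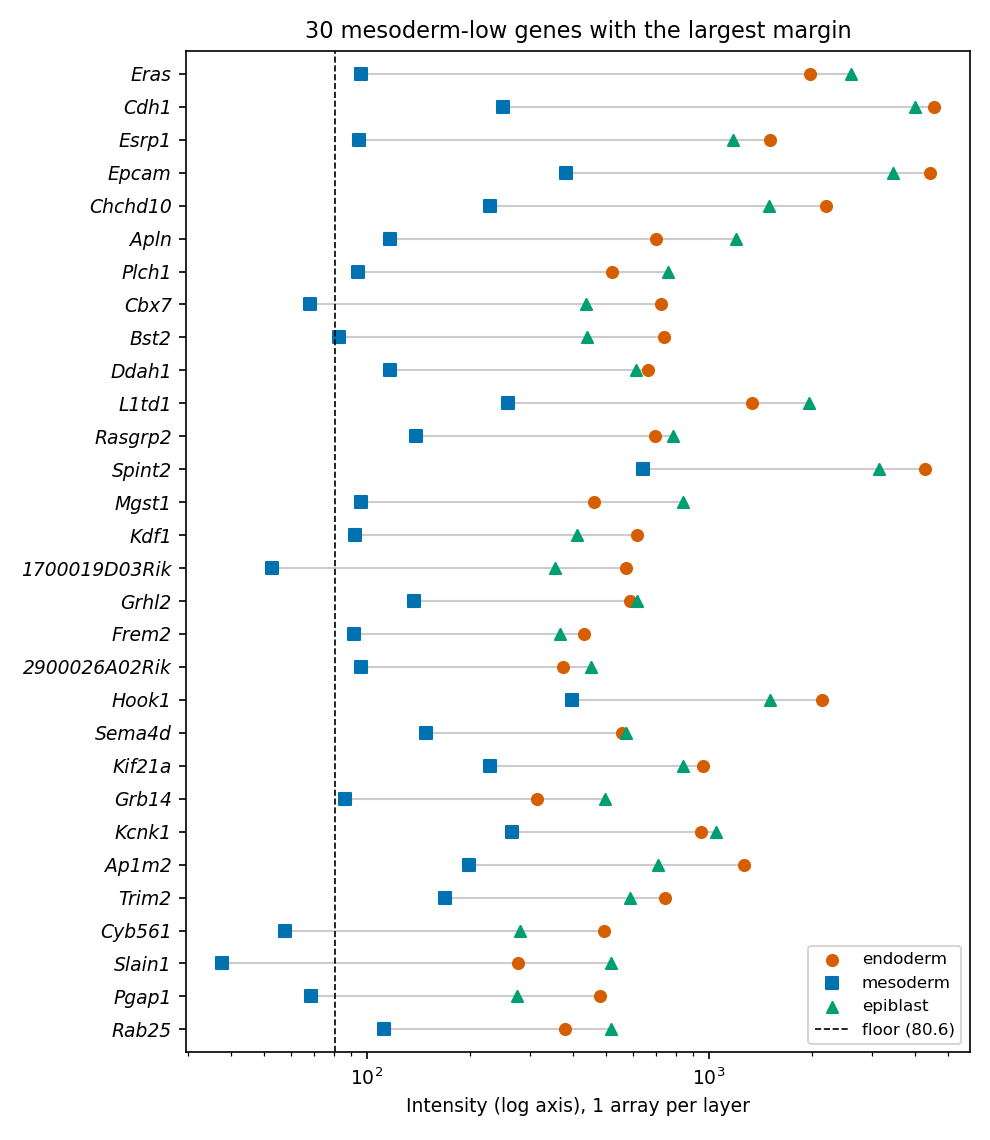
Intensity (x axis, log scale) in endoderm (circles), mesoderm (squares) and epiblast (triangles) for the 30 mesoderm-low genes with the largest margin, 1 array per layer, with the floor dashed. Endoderm and epiblast lie side by side to the right and mesoderm lies alone to the left, for example at 95.8 for Eras against 1978 and 2609.8.

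Genes of cell adhesion, junctions and matrix formed a group of 18 among the 124. They and the role groups counted below were placed by role after their values were seen. Other genes were not placed, so no share over all genes stands beside these counts. The counts describe the list and do not show that a role is common in it. At the adherens junction, Plekha7, a protein that links the junction to microtubules, read 481 in endoderm and 263 in epiblast, against 77.7 in mesoderm (at least 5.97-fold and at least 3.26-fold). Of the tight junction, Cldn4, a claudin, read 252 in endoderm and 176 in epiblast, against 47.5 in mesoderm (at least 3.13-fold and at least 2.18-fold). Marveld3, a membrane protein of the tight junction, read 278 in endoderm and 243 in epiblast, against 14.1 in mesoderm (at least 3.45-fold and at least 3.01-fold). All 3 were below the floor in mesoderm.

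Only part of the junction machinery followed this pattern. Of 15 adherens junction genes above the floor in a layer, 2 were mesoderm-low (Cdh1 and Plekha7) and 1, Jup, was unequal. Ctnnb1, which encodes beta-catenin, the partner of E-cadherin inside the cell, read 8351 in endoderm and 8365 in epiblast, against 8328 in mesoderm, and Ctnna1, the alpha-catenin that joins the complex to actin, read 5000.4 and 3736 against 3664. Both catenins were thus within 1.5-fold across the layers while Cdh1 was not. Of 25 tight junction genes, 2 were mesoderm-low and 6 were unequal, each higher in endoderm. Over the 12785 genes above the floor in any layer the counts were 124 and 82. Among the 6, Cldn6 read 4676 in endoderm and 1510.1 in epiblast, against 30.1 in mesoderm, and Cldn7 read 3829 and 863 against 30.5. Ocln, occludin, read 441 in endoderm and 129 in epiblast, against 19.96 in mesoderm. Tjp1, the scaffold protein ZO-1, read 3076 in endoderm and 2734 in epiblast, against 2330.0 in mesoderm, a spread below 1.5-fold. Over the 25 genes the median log2 difference from mesoderm was 0.96 for endoderm and 0.26 for epiblast, and over the 15 adherens junction genes 0.35 and -0.19, beside 0.07 and 0.02 over the 12785 genes above the floor in any layer.

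Desmosomes, gap junctions and keratins held none of the 124 genes. Of 10 desmosome genes, 4 were 2-fold or more higher in endoderm than in mesoderm and 0 were so in epiblast. Of 7 keratins the counts were 5 and 0. Over the 12785 genes above the floor in any layer they were 1455 and 398, and 124 were mesoderm-low. At those shares a list this short can hold none, so the counts of 0 are a description. In these counts the higher layer also had to exceed the floor. Krt7 read 367 in endoderm and 80.1 in epiblast, against 35.05 in mesoderm, so its epiblast level lay just below the floor and was not counted. Krt8, a keratin of simple epithelia, read 9001 in endoderm and 1136 in epiblast, against 4001 in mesoderm, so its lowest level was in epiblast. Desmosomal Dsp read 2523 in endoderm and 662 in epiblast, against 1333 in mesoderm, in the same order. The epithelial genes named here thus included some shared by endoderm and epiblast, such as Cdh1, and others highest in endoderm, such as Krt8.

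Other members of the adhesion group were surface or matrix proteins. Col18a1, a collagen of basement membranes, read 2517 in endoderm and 1979 in epiblast, against 711 in mesoderm (3.54-fold and 2.78-fold). Frem2, another basement membrane protein, read 432 in endoderm and 367 in epiblast, against 91.8 in mesoderm. The protocadherin Pcdh1 read 420.1 in endoderm and 245 in epiblast, against 21.5 in mesoderm, and Celsr1, an atypical cadherin of planar cell polarity, read 366 and 256 against 113. Of 20 genes of apical-basal polarity, only Wwc1 was mesoderm-low (729.9 in endoderm and 424 in epiblast, against 198 in mesoderm), beside 124 of 12785 genes. The core component Crb3 read 646 in endoderm and 603 in epiblast, against 491 in mesoderm.

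**Figure D3:**
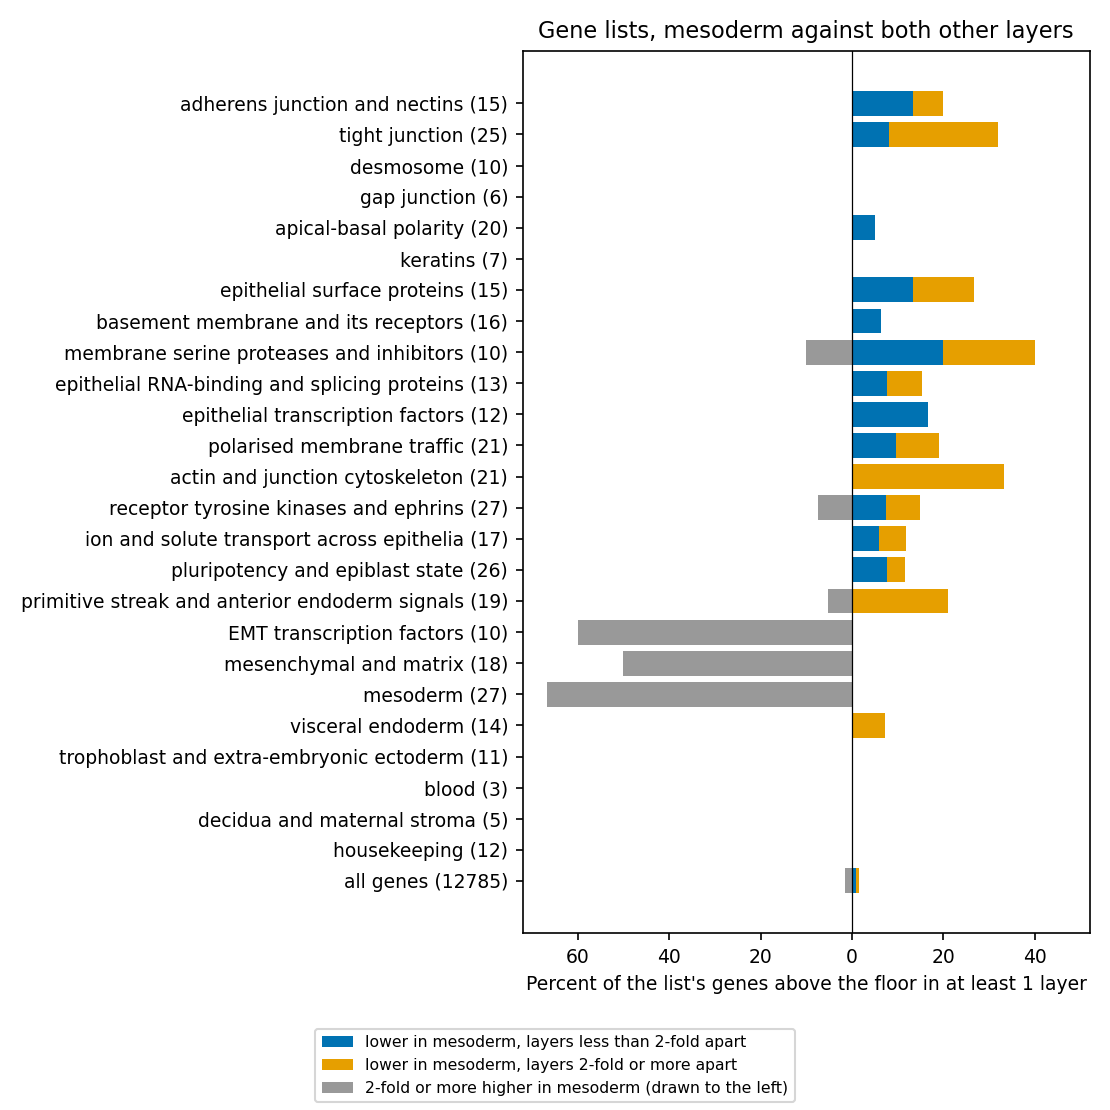
Percent of each gene list's members above the floor in at least 1 layer (number in parentheses) that were 2-fold or more lower in mesoderm than in both other layers (drawn right, split by whether endoderm and epiblast were less than 2-fold apart) or 2-fold or more higher in mesoderm than in both (drawn left). Genes drawn right also had both other layers above the floor. Most epithelial lists have bars on the right, with none for desmosome, gap junction and keratins and 1 protease gene (Pcsk5) on the left. In contrast, 6 of 10 EMT transcription factors, 9 of 18 mesenchymal genes and 18 of 27 mesoderm genes lie on the left.

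A protease system of the epithelial surface was represented by enzyme and inhibitor. St14, the membrane serine protease matriptase, read 509.9 in endoderm and 272 in epiblast, against 61.5 in mesoderm (at least 6.32-fold and at least 3.38-fold). Spint2, which encodes an inhibitor of such proteases, read 4283 in endoderm and 3150.0 in epiblast, against 643 in mesoderm (6.66-fold and 4.90-fold). The partners Prss8, another membrane serine protease, at 2162 and 329 against 68.3, and Spint1, a related inhibitor, at 1063 and 516 against 141 in the same order, were unequal mesoderm-low genes. In the list of 10 such proteases and inhibitors above the floor, 4 thus fell 2-fold or more below both other layers in mesoderm, beside 206 of 12785 genes above the floor in any layer, and 1, Pcsk5, was higher in mesoderm. The list's median log2 difference from mesoderm was 2.78 for endoderm and 0.77 for epiblast.

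Among regulators, Grhl2, a grainyhead transcription factor of epithelia, read 588 in endoderm and 615 in epiblast, against 137 in mesoderm (4.29-fold and 4.48-fold). Klf5, a Kruppel-like factor of epithelia and pluripotent cells, read 512 in endoderm and 475 in epiblast, against 189 in mesoderm (2.71-fold and 2.51-fold). These were the 2 mesoderm-low genes among 12 epithelial transcription factors. Elf3 read 391 in endoderm and 128 in epiblast, against 70.0 in mesoderm, and Ovol2 read 195 and 137 against 90.3, and neither met the rule. Of 13 listed RNA-binding and splicing proteins, not all of them epithelial, Esrp1 alone was mesoderm-low. Its close relative Esrp2 read 224 in endoderm and 73.3 in epiblast, against 64.5 in mesoderm, near the floor in epiblast and mesoderm alike, and Rbm47, an RNA-binding protein of endoderm, read 973 and 90.5 against 44.5. Esrp1 thus met the rule and Esrp2 did not, but the Esrp2 values in epiblast and mesoderm were both below the floor and cannot be ranked. The study's RNA-seq reported lower levels of both genes in mesoderm, of Esrp1 above all.

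Of the EMT transcription factors, most ran the other way. None of 10 above the floor was 2-fold or more lower in mesoderm than in both other layers, and 6 were 2-fold or more higher there than in both, namely Snai1, Snai2, Zeb1, Twist1, Foxc2 and Mesp1, beside 191 of 12785 genes above the floor in any layer. Snai2 read 17.2 in endoderm and 52.2 in epiblast, against 802 in mesoderm, and Zeb1 read 71.5 and 78.3 against 288. Zeb2 was near level, at 154 and 190.5 against 160.3. Eomes, a factor of the primitive streak, had its lowest level in mesoderm, at 773 and 886 against 470.2. In the mesenchymal list, Cdh2, which encodes N-cadherin, read 966 in endoderm and 830.5 in epiblast, against 2417 in mesoderm. Over the 10 EMT factors the median log2 difference from mesoderm was -1.95 for endoderm and -1.46 for epiblast, beside 0.07 and 0.02 over the 12785 genes above the floor in any layer.

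Membrane traffic gave 10 of the 124 genes, all above the floor in mesoderm. Ap1m2, the epithelial subunit of the adaptor that sorts cargo to the basolateral membrane, read 1265 in endoderm and 711 in epiblast, against 199 in mesoderm (6.35-fold and 3.57-fold). Rab25, a small GTPase of apical recycling, read 378 in endoderm and 518 in epiblast, against 112 in mesoderm (3.38-fold and 4.63-fold). Hook1, an adaptor that ties cargo to microtubules, read 2149 in endoderm and 1513 in epiblast, against 399 in mesoderm. Outside epithelial sorting, Unc13b, a priming factor of secretory vesicles, at 330.1 and 221 against 86.8, and Scamp5, a secretory carrier protein, at 537 and 367 against 125, followed the same order. Of the 21 listed genes of polarised traffic, 2 were mesoderm-low and 2 unequal, beside 124 and 82 of 12785 genes. Their median log2 difference from mesoderm was 1.51 for endoderm and 0.37 for epiblast, over the 21 genes. Rab17 read 553 in endoderm and 181 in epiblast, against 175 in mesoderm, high in endoderm alone.

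The actin and junction cytoskeleton list, with 21 genes above the floor, held 0 of the 124 genes and 7 unequal ones. All 7 were higher in endoderm, as were 73 of the 82 unequal genes. Among them, Map7 had a log2 gap of 1.04 between endoderm and epiblast, just over the limit of 1. The list's median log2 differences from mesoderm were 1.84 (endoderm) and 0.55 (epiblast). Ezr, which encodes ezrin, the linker of microvilli, read 4256 in endoderm and 1723 in epiblast, against 540.3 in mesoderm. The 9 genes of the 124 placed by role with the cytoskeleton and motors lay outside that list. Kif21a, a kinesin, read 964 in endoderm and 841 in epiblast, against 228 in mesoderm. Tuba4a, an alpha-tubulin, read 2931 in endoderm and 1612 in epiblast, against 498 in mesoderm, and Pls3, an actin-bundling plastin, read 2173 and 2389.6 against 942.

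Secreted signals and receptors counted 8 genes. Fgf5, a fibroblast growth factor known as a marker of the postimplantation epiblast, read 476 in endoderm and 359.9 in epiblast, against 121 in mesoderm (3.95-fold and 2.99-fold). This was slightly more in endoderm than in epiblast. A dimmer probe set of Fgf5 read 108 in endoderm and 135 in epiblast, against 79.8 in mesoderm, so the order of endoderm and epiblast was not the same in both. Pdgfa, a platelet-derived growth factor, read 715 in endoderm and 919 in epiblast, against 346 in mesoderm (2.07-fold and 2.65-fold). Its receptor Pdgfra read 982 in endoderm and 658 in epiblast, against 3545 in mesoderm, the reverse order. Ligand and receptor were therefore highest in different layers. Sema4d, a membrane-bound semaphorin, read 555 in endoderm and 573 in epiblast, against 149 in mesoderm. Of 27 receptor tyrosine kinases and ephrins, Ddr1, a collagen receptor of epithelia, at 1417 and 1558 against 686, and Kit, the stem cell factor receptor, at 378 and 349.9 against 171, were mesoderm-low. The other Ddr1 probe sets above the floor in endoderm or epiblast all fell short of 2-fold in at least 1 layer. They included a reading of 135 in endoderm and 195 in epiblast, against 141 in mesoderm, with endoderm the lowest. Calcr, the calcitonin receptor, had the lowest endoderm and epiblast intensities of the 124, at 88.4 and 83.6 against 18.5.

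Signalling proteins inside the cell counted 11 genes, led by Eras, Plch1 and Rasgrp2. Grb14, an adaptor of the insulin receptor, read 313 in endoderm and 497 in epiblast, against 86.2 in mesoderm. Shb, another adaptor, read 502 in endoderm and 618 in epiblast, against 191 in mesoderm, and Spred3, of the Spred family of Ras pathway inhibitors, read 104 and 133 against 29.4. All 3 were higher in epiblast than in endoderm. Castor2, of the CASTOR family of arginine sensors upstream of mTORC1, read 1077 in endoderm and 580.4 in epiblast, against 181 in mesoderm, with endoderm the higher.

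Pluripotency genes divided. Of 26 above the floor, L1td1 and Fgf5 were mesoderm-low and Nanog, at 173 in endoderm and 830.5 in epiblast, against 81.3 in mesoderm, was unequal. Nanog is one of the 9 unequal genes with epiblast higher. Pou5f1, the pluripotency factor OCT4, read 1019 in endoderm and 5735 in epiblast, against 2159 in mesoderm, so its lowest level was in endoderm. Lin28a read 5802 in endoderm and 4913 in epiblast, against 4271 in mesoderm, and all of its layers were within 1.5-fold. In this list 11 genes were 2-fold or more higher in epiblast than in mesoderm and 4 in endoderm, counted where the higher layer exceeded the floor. Over the 12785 genes above the floor in any layer the counts were 398 in epiblast and 1455 in endoderm. The median log2 difference from mesoderm was 0.78 for epiblast and 0.15 for endoderm.

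Transcription and chromatin gave 12 genes. Hopx, an atypical homeodomain protein, read 712 in endoderm and 378 in epiblast, against 131 in mesoderm, and Six3, a homeodomain factor of the anterior neural plate, read 218 and 265 against 55.3. Klf9, a Kruppel-like factor, read 1848 in endoderm and 1858 in epiblast, against 680.5 in mesoderm, and its other layers were nearly equal. Jund, an AP-1 subunit, read 1771 in endoderm and 1928 in epiblast, against 790.4 in mesoderm. Rian, a maternally expressed noncoding RNA of the imprinted Dlk1-Dio3 region, read 5384 in endoderm and 3262 in epiblast, against 1389 in mesoderm (3.88-fold and 2.35-fold). It was, with Bex4, among the brightest of the 124.

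Metabolic enzymes and mitochondrial proteins gave 17 more genes. Mgst1, a microsomal glutathione transferase, read 460.0 in endoderm and 840.3 in epiblast, against 95.9 in mesoderm (4.79-fold and 8.76-fold), and Gstt2, a cytosolic one, read 231 and 274 against 83.3. Acsl4, which activates long polyunsaturated fatty acids, read 1374 in endoderm and 1184 in epiblast, against 581 in mesoderm. Slc27a2, a fatty acid transporter and ligase, read 180.2 in endoderm and 190.1 in epiblast, against 61.8 in mesoderm. Nipsnap1, a mitochondrial protein, read 2056 in endoderm and 1359 in epiblast, against 521 in mesoderm (3.95-fold and 2.61-fold). A group of 6 genes made or trimmed glycans and glycan anchors. Galnt3, an enzyme that starts mucin-type sugar chains, read 355 in endoderm and 213 in epiblast, against 27.9 in mesoderm (at least 4.40-fold and at least 2.65-fold), and Pgap1, which remodels the lipid anchor of surface proteins, read 479 and 274 against 68.5. Of channels and pumps, Kcnk1, a potassium channel of the K2P family, read 947 in endoderm and 1052 in epiblast, against 265 in mesoderm (3.58-fold and 3.97-fold). Bmf, a BH3-only protein that promotes cell death, read 1129.7 in endoderm and 665 in epiblast, against 211 in mesoderm, and Bid, another, read 879 and 789.9 against 366.

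Values next to the limits show how the rule divided similar genes. Just inside the 2-fold limit lay Bex4 (7526 and 5938 against 2965, for endoderm and epiblast against mesoderm), Acot7 (406 and 565 against 203) and Lmo7 (769.7 and 440.4 against 218). Just outside lay Shroom2 (577 and 692 against 288), Blnk (145 and 102 against 50.9) and Hs6st1 (541 and 721 against 273). At the limit between endoderm and epiblast, Pipox (91.8 and 178 against 25.4), Pgap6 (306 and 159 against 62.0) and Pcsk1n (172 and 326 against 79.2) were kept, whereas Trp53inp1 (1332 and 665 against 325), the tight junction protein F11r (2562 and 1275 against 444) and Cmtm8 (1085 and 532 against 92.5) were not. At the floor, Calcr, Lypd6b (134 and 86.5 against 24.7) and Fut9 (106 and 91.0 against 42.0) were kept, and Acbd7 (112 and 62.3 against 18.7), Dleu7 (52.9 and 73.3 against 22.2) and Mal2 (51.7 and 71.1 against 2.70) were not. F11r and Trp53inp1 missed by less than 0.01 on the log2 scale, so membership near a limit separates genes whose levels barely differ.

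Probe sets that the rule did not use gave a second reading of the same arrays. Of the 124 genes, 68 had several probe sets and 56 had 1. The 68 genes had 137 other probe sets. With no filter on their level, mesoderm was the lowest of the layers in 101 of the 137, and in 36 (26.3%) both other layers exceeded it by 2-fold or more. Of 16615 other probe sets of the remaining genes, mesoderm was the lowest in 27.8%, and 96 (0.578%) had both other layers 2-fold or more above it. The median of the smaller log2 difference from mesoderm was 0.28 for the 137 and -0.14 for the 16615. Most of the 137 thus did not repeat the 2-fold difference. Of the 137, 75 in 45 genes were above the floor in endoderm or epiblast, and 34 of them showed it, beside 57 of 8784 (0.649%) for the remaining genes. Because that floor looks only at layers where these genes are high, it favours probe sets with a low mesoderm, and the counts over the 75 are a description and no support. Probe sets of a gene share the array and the RNA sample, so this is a check on the measurement of a transcript and not on the tissue.

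Among the 75, the second readings that were 2-fold or more lower in mesoderm included the brightest. The difference from mesoderm contains the endoderm or epiblast level, so part of this relation is built in. The other probe set of Spint2 read 4052 in endoderm and 2694 in epiblast, against 500.5 in mesoderm, and that of Chchd10 read 1736 and 1324 against 288. The 3 of Trim2, a ubiquitin ligase, and 4 of 6 of Klf9 were also 2-fold or more lower in mesoderm. The 2 of Grhl2 read 139 and 143 against 137, and 92.8 and 115 against 95.5, nearly level. The 1 of Cbx7 read 116 and 140 against 135, with mesoderm no longer the lowest. That of Epcam was dim, at 230.4 and 211 against 129.5. Of the 45 genes, 15 had each of their probe sets among the 75 2-fold or more lower in mesoderm and 20 had none so. Grhl2, Cbx7, Epcam, Ddr1, Bmf, Plekha7, Sema4d and Six3 were among the 20. The 62 dim probe sets, 2 of which were 2-fold or more lower in mesoderm, are not in these counts by gene. Cdh1, Esrp1 and Eras had a single probe set each and could not be read again.

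**Figure D4:**
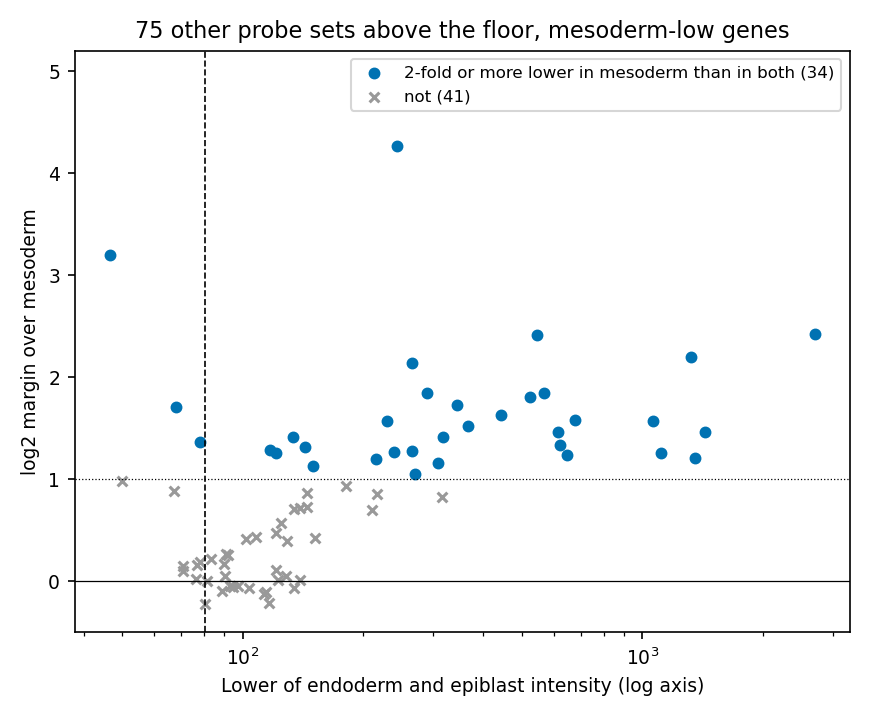
Smaller log2 difference from mesoderm (y axis) against the lower of the endoderm and epiblast intensities (x axis, log scale) for the 75 other probe sets of the mesoderm-low genes above the floor in endoderm or epiblast, with the floor dashed and the 2-fold limit dotted. The 34 filled circles, 2-fold or more lower in mesoderm than in both layers, include all of the brightest points, and the 41 crosses gather at low intensity. The level on the x axis is also a term of the difference on the y axis, so part of any rise is built in.

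Promoter sequences were looked at in RefSeq windows of mouse build GRCm38.p6, from 250 bases before to 50 bases after a transcript start. They were found for 98 of the 124 genes, 79.0%. Since under 80% had a window, any comparison of sequence content between the mesoderm-low genes and others is void. Counts over the whole promoter table are printed as a description, and no difference is read from them. Each window was searched on both strands for CAGGTG, which reads CACCTG on the other strand, the E-box letters that SNAI and ZEB repressors are known to bind. It was present in 48 of the 147 windows of the 98 genes and in 6640 of the 32851 windows of the whole promoter table (20.2%). The longer grainyhead letters AACCGGTT were in 1 of the 147 windows and in 48 of all windows (0.146%).

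The 120 bases before the start are printed for 6 mesoderm-low genes, since they place these letters beside epithelial genes described above. Ap1m2, Rab25 and Cldn4 come from the junction and traffic lists, and Epcam, Spint2 and Galnt3 were added after the letters had been counted. All 6 hold the letters, whereas most of the 98 genes hold them in no window. They were in 43 of the 98 genes and in 6098 of the 27025 genes of the whole promoter table. No difference is read from this, and the 6 do not stand for the mesoderm-low genes. The sequences run 5′ to 3′ towards the start on the strand of the gene, with CAGGTG and CACCTG in capitals.

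Epcam, chr17:87635859-87635978, plus strand: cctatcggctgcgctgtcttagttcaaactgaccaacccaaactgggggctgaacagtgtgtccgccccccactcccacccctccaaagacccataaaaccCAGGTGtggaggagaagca

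Spint2, chr7:29281978-29282097, minus strand: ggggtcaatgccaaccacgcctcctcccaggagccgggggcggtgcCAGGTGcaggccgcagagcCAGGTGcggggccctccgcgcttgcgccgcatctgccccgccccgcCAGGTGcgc

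Ap1m2, chr9:21312334-21312453, minus strand: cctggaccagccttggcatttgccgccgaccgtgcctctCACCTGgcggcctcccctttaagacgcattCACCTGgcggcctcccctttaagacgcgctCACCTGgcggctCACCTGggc

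Rab25, chr3:88548280-88548399, minus strand: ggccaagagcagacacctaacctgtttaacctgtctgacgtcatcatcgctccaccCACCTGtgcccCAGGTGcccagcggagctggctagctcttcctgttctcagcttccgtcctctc

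Galnt3, chr2:66124794-66124913, minus strand: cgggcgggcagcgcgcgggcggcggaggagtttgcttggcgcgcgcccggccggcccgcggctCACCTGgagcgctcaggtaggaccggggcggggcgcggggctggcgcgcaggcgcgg

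Cldn4, chr5:134946935-134947054, minus strand: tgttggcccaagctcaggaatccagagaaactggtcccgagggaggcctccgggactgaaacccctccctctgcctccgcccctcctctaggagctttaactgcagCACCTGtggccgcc

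Before the start, Spint2 held 3 copies, which began 74, 55 and 9 bases before the start. Ap1m2 held 4, the first of them 81 bases before it, in a stretch that repeats. Rab25 held 2 copies, 64 and 53 bases before the start. Epcam held 1 in the printed stretch, 19 bases before the start, and another 187 bases before it. Galnt3 held 1 at 57 bases and another 170 bases before the start, and Cldn4 1 at 14 bases. Over the whole window, with the bases after the start, Galnt3 had 3 copies and Cldn4 had 2. A match of letters is a description of sequence and not a site or a cause of the levels.

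In RefSeq gene order, 1 pair of mesoderm-low genes was adjacent. Pcsk1n, a secreted inhibitor of prohormone processing, and Eras had 0 protein-coding genes between them, and Pcsk1n read 172 in endoderm and 326 in epiblast, against 79.2 in mesoderm, with epiblast the higher as in Eras. The pairs Moxd1 and Enpp3, Adamts15 and St14, and Gca and Grb14 each had 2 genes between them. Outside the named genes, 10 of 10092 probe sets with several symbols or none met the same limits.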

How the data were processed

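The endoderm, mesoderm and epiblast were profiled on 1 array each. According to the labels and methods, the authors used Robust Multiarray Average (RMA) for background correction and normalization. The deposited table holds linear intensities, and the sources used here name no later rescaling. They were converted to log2 here. The 45037 probe sets were named from the platform annotation (34945 with 1 symbol, 932 with several, 9160 with none), giving 18193 genes. With 1 array per layer no test was possible, so differences are descriptions, and the number of arrays limits their precision. The SD of the log2 difference between probe sets of a gene was 0.39 for endoderm and 0.27 for epiblast, each minus mesoderm (5536 genes). The mesoderm-low genes and the 25 gene lists were chosen with earlier results of these data known. Named genes are the 12 of largest margin, list members, listed genes outside the rule, genes at its limits and the study's markers. Other genes were named after their values were seen. How often the rule errs in these data was not tested. Protein sequences were not analysed here. Alternatives used limma 3.58.1 (R 4.3.3).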

Additional observations from a re-analysis of the deposited data

How the results depend on the processing

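The number of mesoderm-low genes, 124, fell to 66 with the floor at the 75th percentile and to 58 with a 3-fold limit against mesoderm. Under the 9 other settings it ran from 83 to 143. Fewer genes can pass a stricter limit by construction. With the higher floor, 1 of the 4 junction genes remained (Cdh1), and 73.1% of the other probe sets (19 of 26) met the rule, against 30 of 75. With dim probe sets kept, an alternative added after the data were seen, 30 of 137 (21.9%) did. Quantile normalization kept 102 of the 124 genes, cyclic loess 116 and the mean over a gene's probe sets 88, and F11r joined the junction genes under both normalizations. Quantile normalization moved the median log2 difference of endoderm from mesoderm over all genes above the floor from 0.07 to -0.08. No gene of the 124 changed direction under 6 settings of scaling, floor and probe set choice. Raising values to the floor could not reverse a gene, and the mean over probe sets still held the probe set that the rule used. The genes were chosen by these differences, so the count is a description and no support. With the mean over probe sets, 33 of the 124 genes fell below a log2 difference of 1. The share of mesoderm-low windows with an E-box (CANNTG) other than CAGGTG and CACCTG, also added then, was 62.6%, and 53.7% without the bases after the start. Over the whole promoter table the shares were 65.5% and 59.2%, and no difference is read from them. No paired analysis was possible because each layer has 1 array. The table gives no signal over background, so values near the floor are bounds.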
